A study of Mus musculus with 9 samples.

Results

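The mouse metallothioneins Mt1, Mt2 and Mt3 and Gm45774, an antisense feature that lies over Mt2, were followed in lung fibroblasts of mice treated with doxorubicin (DOX) or PBS. These 4 features were taken by symbol from 55302 gene symbols. They were picked with earlier results of these libraries known, because Gm45774 carried far more reads than Mt2 on the other strand. That difference in level is therefore described here without a test, and the treatment shift and the covariation between libraries are what was compared.

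Bulk RNA was profiled in 9 libraries of fibroblasts sorted from early-metastatic lungs, 5 from DOX mice and 4 from PBS mice, each labelled a biological replicate. All mice were females that had carried a breast tumor of 4T1 or EO771 cells, injected orthotopically at 8 weeks of age and resected 2 weeks later, and which of these models gave these libraries is not given in the sources used here. DOX, an anthracycline that damages DNA, was injected intraperitoneally as 2 doses of 5 mg/kg. The first dose came 4 days after resection, the second 5 days later, and lungs were collected 24 h after that. The PBS group is also called vehicle and saline in the labels. Cells were sorted as CD45-, EpCAM- and PDGFRα+, with CD31- added in the methods. In such sorted bulk material, a smaller share of cells of a type and less RNA per cell cannot be told apart.

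Metallothioneins are small cysteine-rich proteins that bind zinc, copper and cadmium and scavenge radicals. Mt1 and Mt2 are made in most tissues, and their transcription is driven by metals through the zinc-sensing factor MTF1, by glucocorticoids and by oxidative stress. Mt3 is known mainly from the brain and Mt4 from stratified squamous epithelium. An antisense feature is a transcript annotated on the strand opposite to a gene, so that a read over both is credited to one or the other by its strand.

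MARS-seq, the method used, sequences short 3′ fragments of polyadenylated RNA and retains strand information. Each deposited value is a normalized count, that is, a read number scaled for library size. The libraries held 432322 to 1285816 reads in DOX (median 691945) and 497637 to 734114 reads in PBS (median 599612.5). The ribosomal RNA feature CT010467.1 took 7.91% to 35.3% of the reads in DOX, the highest share being in DOX replicate 2, and 5.74% to 9.34% in PBS. All 12 fibroblast markers were found in both groups and summed to 2813 to 3612 normalized counts in DOX and 1932 to 3925 in PBS. Pdgfra, the gene of the sorting antigen, was nevertheless at only 0.928 to 8.22 in DOX and 0.810 to 12.0 in PBS. PBS replicate 4 stood apart, with granulocyte markers at 1177 against 23.0 to 91.1 in the other 8 libraries, pan-immune markers at 275 against 7.39 to 42.9 and epithelial markers at 483 against 14.8 to 179. Among the other 8 libraries the granulocyte and epithelial sums did not overlap between DOX and PBS, a split that was not tested. PBS replicate 4 exceeded every DOX library in both sums. Granulocyte markers summed to 65.8 to 91.1 in DOX and to 23.0, 33.8 and 37.9 in PBS replicates 1 to 3. Of the 12 granulocyte markers, 9 were above 0 in at least 1 DOX library and 10 in at least 1 of these 8 libraries. Epithelial markers summed to 44.5 to 179 in DOX and to 31.0, 14.8 and 36.6 in PBS replicates 1 to 3. All 10 epithelial markers were above 0 in at least 1 DOX library. Pan-immune, endothelial and red blood cell markers overlapped between the groups.

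The 4 features lie in the metallothionein cluster of chromosome 8, with coordinates on mm10 from GENCODE M21. Mt3 (ENSMUSG00000031760) spans chr8:94152607-94154146 on the plus strand. Gm45774 (ENSMUSG00000110588) spans chr8:94170748-94173412 on the minus strand as 1 exon of 2665 bases, annotated as antisense. Mt2 (ENSMUSG00000031762) spans chr8:94172664-94173568 on the plus strand in 3 exons. Mt1 (ENSMUSG00000031765) spans chr8:94179082-94180327 on the plus strand in 3 exons and begins 5513 bases past the end of Mt2. The opposite-strand overlap concerns Mt2 alone among these genes, since Mt1, Mt3 and Mt4 have no annotated exon of another gene opposite to theirs.

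Gm45774 covers exon 1 (212 bases) and exon 2 (66 bases) of Mt2 completely and 77 of the 233 bases of exon 3. This amounts to 355 of 511 exon bases, or 69.5%. The last 156 bases of Mt2, which hold its 3′ end, lie outside Gm45774, and Gm45774 extends 1916 bases before the start of Mt2. The strand setting of the read counting is not given in the sources used here, so reads of Mt2 RNA and reads of a transcript of Gm45774 cannot be told apart from these values. The limit is not confined to genes with an overlapping partner. If reads of the strand opposite to the mRNA were counted, the values of Mt1 and Mt3 would not be those of their mRNA either.

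**Figure D1:**
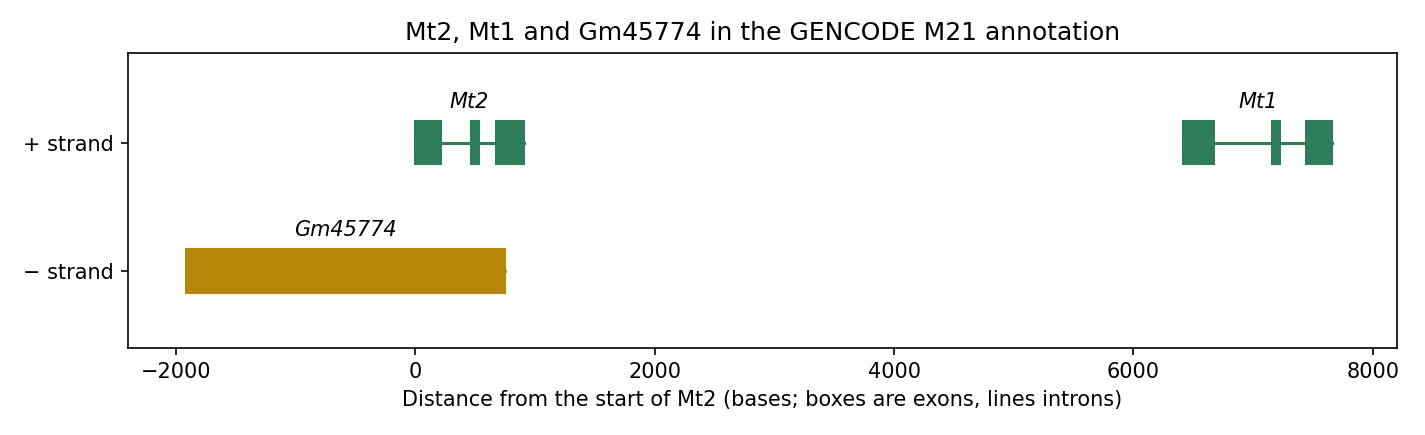
Map of Mt2, Mt1 and Gm45774, with the distance from the start of Mt2 in bases on the horizontal axis and the 2 strands above each other, where boxes are exons and lines are introns. Gm45774 reaches from 1916 bases before Mt2 into its last exon, and Mt1 lies 5513 bases past Mt2 with nothing drawn opposite to it.

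The promoters of Mt1 and Mt2 are shown because both genes are classical targets of MTF1 and moved together between libraries, and because the whole Mt2 window lies within Gm45774. Each window is 300 bases of RefSeq (GRCm38.p6), 250 before and 50 after the start that RefSeq gives, on the plus strand, and capitals mark matches to the core of the metal response element, TGCACNC or TGCGCNC, on either strand.
Mt1 (chr8:94178839-94179138): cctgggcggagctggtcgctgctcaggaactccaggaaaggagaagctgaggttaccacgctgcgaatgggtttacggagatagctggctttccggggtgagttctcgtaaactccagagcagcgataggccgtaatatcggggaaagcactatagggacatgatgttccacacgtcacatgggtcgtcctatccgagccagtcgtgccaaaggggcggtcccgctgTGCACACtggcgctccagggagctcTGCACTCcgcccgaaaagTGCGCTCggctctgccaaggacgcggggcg
Mt2 (chr8:94172368-94172667): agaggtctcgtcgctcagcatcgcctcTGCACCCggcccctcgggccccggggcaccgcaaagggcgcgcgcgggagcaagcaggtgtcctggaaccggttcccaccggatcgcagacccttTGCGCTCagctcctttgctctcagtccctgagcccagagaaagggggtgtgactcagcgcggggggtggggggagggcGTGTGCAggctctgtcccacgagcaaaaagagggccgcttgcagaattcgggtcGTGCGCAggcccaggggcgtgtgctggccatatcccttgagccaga

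The Mt1 window held 3 matches and the Mt2 window 4, of which the last 2 are on the minus strand. The window of Mt3 held 1. Of 32851 promoter windows of the same length, 25.7% held at least 1 match, 1.97% at least 3 and 0.517% at least 4. The core of the antioxidant response element, TGACNNNGC, was matched once in Mt2, as TGACTCAGC, and not in Mt1 or Mt3, whereas 12.4% of all windows held it. No match of one motif overlapped a match of the other. A match is a stretch of letters and not a measured binding site.

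Mt1, which like Mt3 has no annotated gene opposite to it, was listed higher in every DOX library than in any PBS library. It was at 965, 846, 695, 592 and 536 normalized counts in DOX replicates 1 to 5 and at 382, 476, 472 and 478 in PBS replicates 1 to 4. The groups did not overlap, but DOX replicate 5 lay close to the upper 3 PBS libraries, and DOX replicates 1 and 2 were well above the rest. Such a separation was seen in 1.27% of the 2604 genes tested for higher values in DOX (33 genes) and in 1.38% for lower values (36 genes). It also held for Mt1 as a share of all reads, where the lowest DOX library was at 0.0813% and the highest PBS library at 0.0804%, and as a share of the reads other than CT010467.1, at 0.0978% and 0.0855%. The strand behind these values is not known. The granulocyte and epithelial marker sums were also higher in the DOX libraries than in PBS replicates 1 to 3. PBS replicate 4 had the highest of both sums, 1177 and 483, with Mt1 at 478. The part of these sums in the differences of Mt1, Mt2 and Gm45774 was not tested. Over DOX replicates 1 to 5 the epithelial sums were 44.5, 139, 122, 136 and 179. The granulocyte sums were 79.8, 65.8, 80.7, 91.1 and 76.3 in the same order of replicates.

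Mt1 averaged 727 ± 178 normalized counts in DOX (SD, n = 5) and 452 ± 47.0 in PBS (SD, n = 4), a log2 difference of 0.66 with a standard error of 0.22 and a 95% interval of 0.18 to 1.13. It did not pass the test over all genes (limma, Benjamini-Hochberg adjusted p = 0.659). The interval is not adjusted for the number of genes. Its unadjusted p was the 37th lowest of 2604 genes.

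Mt2 varied more than Mt1 in both groups. It was at 1091, 753, 546, 575 and 310 normalized counts in DOX replicates 1 to 5 and at 217, 366, 437 and 487 in PBS replicates 1 to 4. Of the DOX libraries 4 lay above every PBS library, and DOX replicate 5 lay among the PBS libraries. Mt2 averaged 655 ± 290 in DOX (SD, n = 5) and 377 ± 118 in PBS (SD, n = 4). The log2 difference was 0.74 with a standard error of 0.33 and a 95% interval of 0.04 to 1.44 (limma, adjusted p = 0.761).

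Gm45774 was among the most abundant features of every library. It was at 56029, 44781, 30020, 23659 and 14682 normalized counts in DOX replicates 1 to 5 and at 21506, 20076, 23975 and 20526 in PBS replicates 1 to 4. The PBS libraries were nearly equal, whereas the DOX libraries were spread on both sides of them, 3 above every PBS library and DOX replicate 5 below every one. As a share of all reads, Gm45774 took 8.73%, 5.35%, 5.12%, 3.57% and 2.23% in DOX replicates 1 to 5 and 3.41%, 3.35%, 3.82% and 3.45% in PBS replicates 1 to 4. It ranked 2nd to 6th among all genes of a library in DOX and 4th or 5th in PBS.

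Gm45774 averaged 33834 ± 16563 normalized counts in DOX (SD, n = 5) and 21521 ± 1742 in PBS (SD, n = 4). The SD was 49.0% of the mean in DOX and 8.09% in PBS, and the highest library exceeded the lowest 3.82-fold in DOX and 1.19-fold in PBS. For Mt1 the same ratio was 1.80 in DOX and 1.25 in PBS, and for Mt2 it was 3.52 in DOX and 2.25 in PBS. The log2 difference of Gm45774 was 0.50 with a standard error of 0.30 and a 95% interval of -0.13 to 1.14 (limma, adjusted p = 0.796). It was 0.28 without DOX replicate 1 and 0.77 without DOX replicate 5, the lowest and highest values over the 9 libraries left out in turn.

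**Figure D2:**
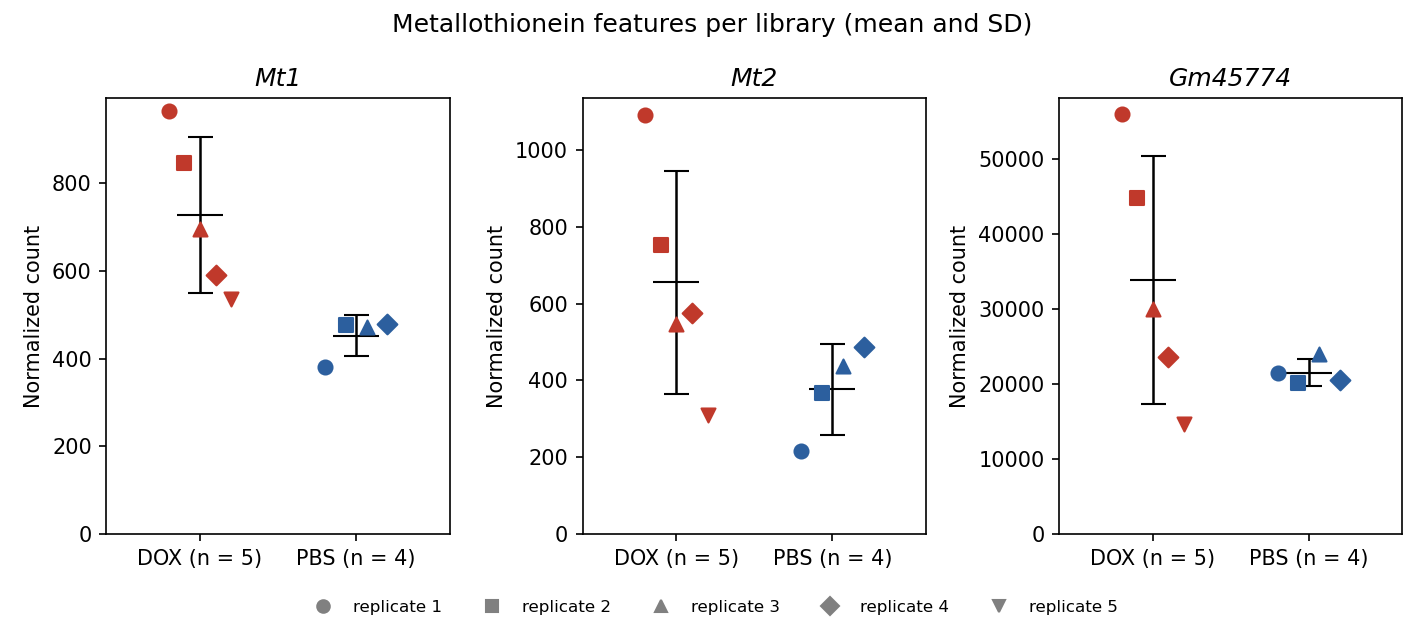
Normalized counts of Mt1, Mt2 and Gm45774 on the vertical axes (each from 0), with 1 point per library, DOX left (n = 5) and PBS right (n = 4), and bars for the mean and SD. All DOX points lie above all PBS points for Mt1, 4 of 5 do for Mt2 and 3 of 5 for Gm45774, whose PBS points sit between 20076 and 23975.

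Mt3 was at 0 in all 9 libraries, as was its neighbour Mt4. At 3 reads, the most that a count of 0 allows at 95% confidence, Mt3 could have reached 1.54 to 5.81 normalized counts per library, or 4.76e-05% of the 6303233 reads in all, a limit that covers counting error only and, with the strand setting not known, bounds the counted reads and not necessarily Mt3 mRNA. Mt3 was not detected in these values and entered no test. Of the 4 features, 3 passed the filter on low values. The next genes along the chromosome also had low values. Bbs2, a subunit of the ciliary BBSome, was at 3.54 ± 6.74 in DOX (SD, n = 5) and 7.38 ± 6.93 in PBS (SD, n = 4). Gm45873, Ogfod1 and Nup93 were below 1 on average, and Gm39228 and Rpl10-ps5 were at 0. The strand limit given for Mt3 holds for these genes too.

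No gene passed the test between DOX and PBS. With limma 0 of 2604 genes (0%) had an adjusted p under 0.05. An unadjusted p under 0.05 was reached by 162 genes (6.22%), with 79 higher (3.03%) and 83 lower (3.19%) in DOX. With edgeR on the recovered reads 0 of 2618 genes passed (5.69% at an unadjusted p under 0.05), with DESeq2 0 of 17172 (2.7%) and with limma-voom 0 of 2618 (6.11%). The fitted means of all 3 measured members were higher in DOX, as were those of 49.4% of all genes tested. Leaving out PBS replicate 4 gave log2 differences of 0.68 for Mt1, 0.89 for Mt2 and 0.48 for Gm45774.

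**Figure D3:**
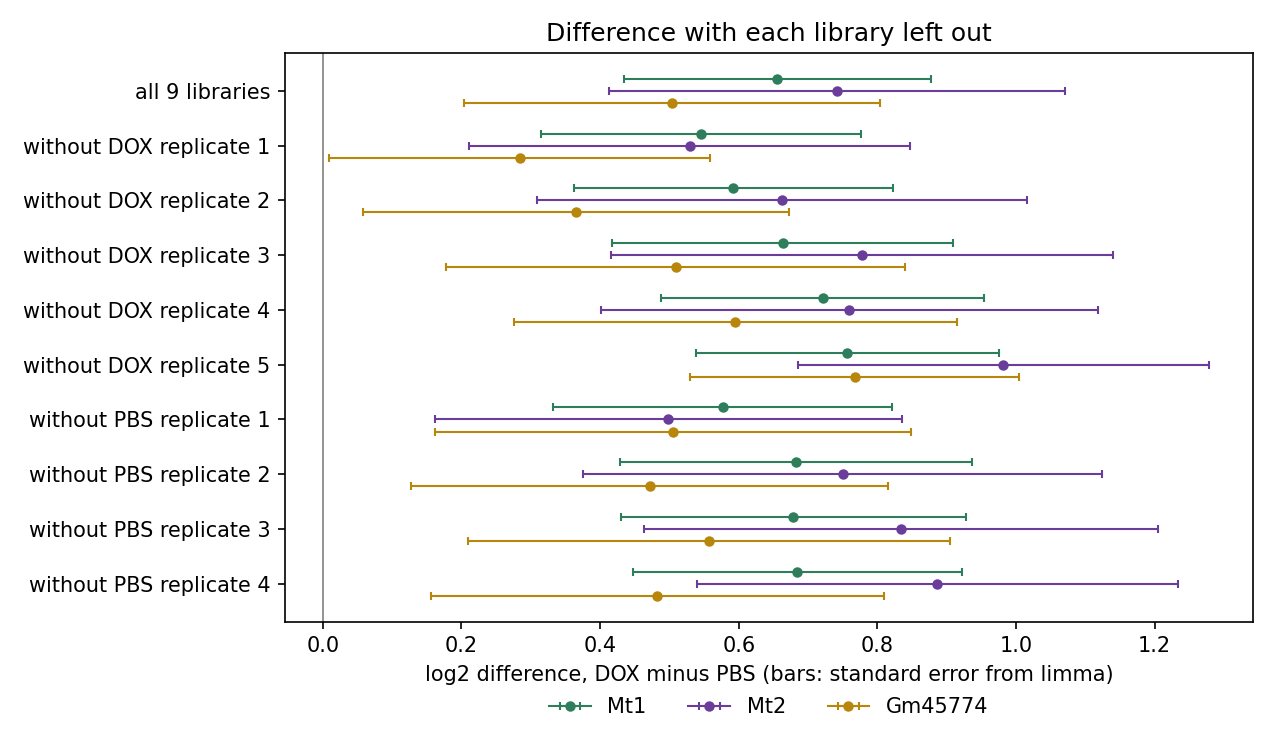
Log2 difference between DOX and PBS of Mt1, Mt2 and Gm45774 on the horizontal axis, with bars for the standard error from limma, for all 9 libraries and with each library left out in turn. All differences stay above 0, and that of Gm45774 lies between 0.28 without DOX replicate 1 and 0.77 without DOX replicate 5.

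Whether Gm45774 shifted by a different amount than Mt2 or Mt1 was tested on the log2 ratio of the features within each library. The Gm45774 to Mt2 ratio of normalized counts was 51.3, 59.5, 54.9, 41.1 and 47.3 in DOX replicates 1 to 5 and 99.2, 54.8, 54.9 and 42.2 in PBS replicates 1 to 4. PBS replicate 1, the library with the least Mt2, stood apart, and the other 8 libraries shared one range. The log2 ratio averaged 5.65 ± 0.21 in DOX (SD, n = 5) and 5.89 ± 0.52 in PBS (SD, n = 4), a difference of -0.24 (exact two-sided permutation test, p = 0.476, adjusted over 3 pairs 0.746). Without PBS replicate 1 the difference was 0.01.

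The Gm45774 to Mt1 ratio was 58.1, 52.9, 43.2, 40.0 and 27.4 in DOX replicates 1 to 5 and 56.4, 42.2, 50.8 and 42.9 in PBS replicates 1 to 4. The groups overlapped, with DOX replicate 5 lowest. The difference in log2 ratio was -0.15 (exact two-sided permutation test, p = 0.603, adjusted 0.746), and it was 0.01 without DOX replicate 5. The Mt2 to Mt1 ratio was 1.13, 0.890, 0.787, 0.972 and 0.579 in DOX replicates 1 to 5 and 0.568, 0.769, 0.925 and 1.02 in PBS replicates 1 to 4, and these groups overlapped as well. The difference was 0.09 (exact two-sided permutation test, p = 0.746, adjusted 0.746). The smallest p that this design allows was 0.0159, and a p above the threshold does not show that the shifts were equal.

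The DOX libraries had nearly the same order in all 3 features, and the PBS libraries did not. In DOX, Gm45774 and Mt1 had the same order from replicate 1, the highest, to replicate 5, the lowest, and Mt2 differed only in that replicate 4 lay slightly above replicate 3. In PBS, Mt2 and Mt1 were both lowest in replicate 1 and highest in replicate 4, with replicates 2 and 3 in opposite order, whereas Gm45774 was highest in replicate 3 and lowest in replicate 2 within its narrow range.

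Gm45774 and Mt2 had Pearson's r = 0.84 over the log2 values of 9 libraries (exact permutation p = 0.00521, adjusted over 3 pairs 0.00781) and Spearman's rho = 0.80 (exact permutation p = 0.0138, adjusted 0.0207). Without DOX replicate 1 and PBS replicate 1, the 2 libraries farthest from the median of Mt2, r was 0.91. Without DOX replicate 1 alone, r was 0.72 and no longer passed (exact permutation, adjusted p = 0.0522). For deviations from the group means r was 0.80, and without PBS replicate 4 it was 0.86. For all 3 pairs, such deviations pool both groups, and r within DOX or PBS alone was not calculated. Gm45774 spread far more in DOX (SD 49.0% of the mean) than in PBS (8.09%).

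Gm45774 and Mt1 had r = 0.84 (exact permutation p = 0.00899, adjusted 0.00899), but rho = 0.63 did not pass (exact permutation p = 0.0760, adjusted 0.0760). Without DOX replicates 1 and 2, the 2 libraries farthest from the median of Mt1, r was 0.39, so that it depends strongly on them. Without DOX replicate 1 alone r was 0.73 (exact permutation, adjusted p = 0.0540). Deviations from the group means gave 0.91. Without PBS replicate 4, r was 0.84.

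Mt2 and Mt1 had r = 0.91 (exact permutation p = 0.000716, adjusted 0.00215) and rho = 0.87 (exact permutation p = 0.00451, adjusted 0.0135). Without DOX replicates 1 and 2 their r was 0.76. The order of the 3 pairs depends on single libraries, since without PBS replicate 1 r was 0.95 for Gm45774 and Mt2, 0.90 for Gm45774 and Mt1 and 0.87 for Mt2 and Mt1. For deviations from the group means r was 0.91, and without PBS replicate 4 it was 0.94. The coding sequences of Mt2 and Mt1 are 79.6% identical (148 of 186 bases, with a longest shared run of 20 bases) and their 3′ untranslated regions 56.1%, with a longest shared run of 10 bases. The libraries differed in treatment and depth, and the DOX libraries with least Gm45774, replicates 4 and 5, had the most reads, 887830 and 1285816. The part of depth in these correlations was not tested.

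**Figure D4:**
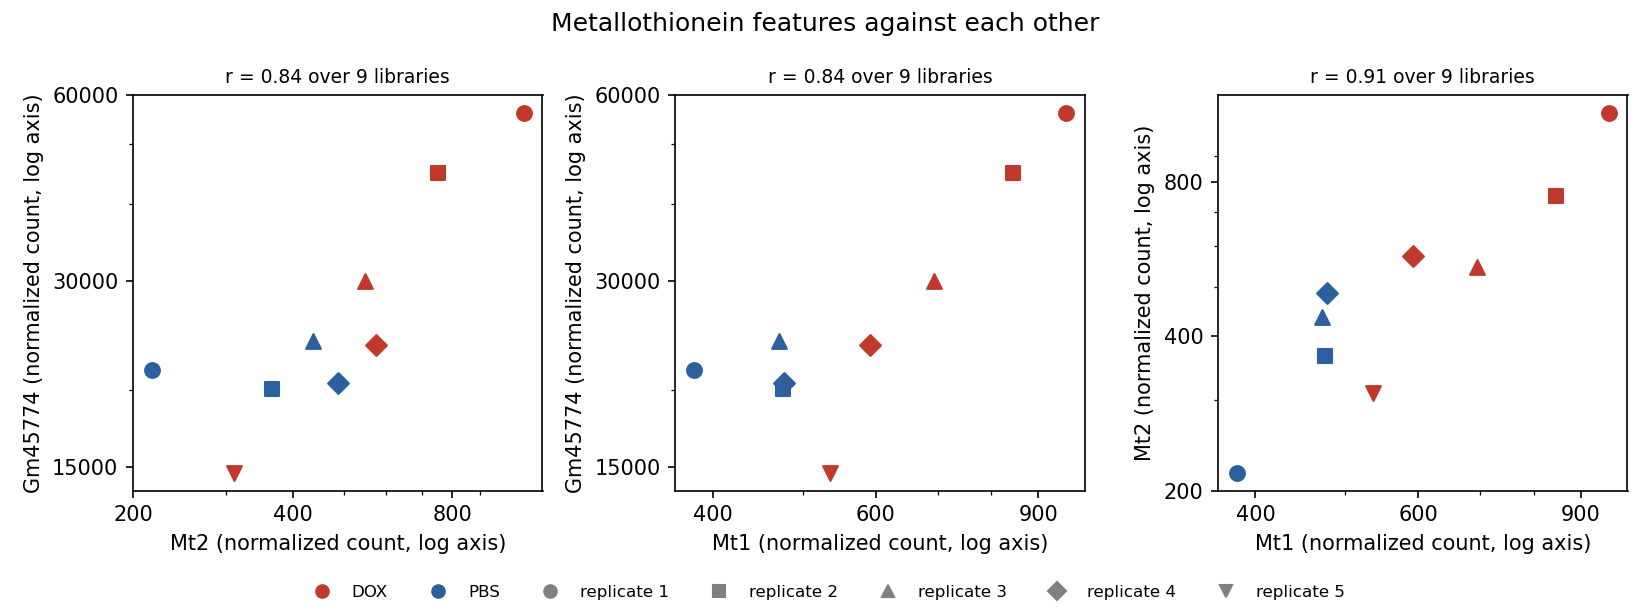
Normalized counts of Gm45774 against Mt2, Gm45774 against Mt1 and Mt2 against Mt1 on log axes, with 1 point per library colored by group. DOX replicates 1 and 2 lie at the upper right of each panel, DOX replicate 5 at the bottom of both Gm45774 panels, and PBS libraries form a nearly flat row in Gm45774.

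Per 1000 annotated exon bases, Gm45774 averaged 12696 ± 6215 normalized counts in DOX (SD, n = 5) and 8075 ± 654 in PBS (SD, n = 4). On the same scale Mt2 averaged 1282 ± 568 in DOX and 737 ± 230 in PBS, and Mt1 1323 ± 324 in DOX and 823 ± 85.5 in PBS. Gm45774 was thus 9.90-fold above Mt2 in DOX and 10.96-fold in PBS per exon base. MARS-seq reads 1 end of a transcript, so values without division by length are given as well, and on these Gm45774 made up 97.6% to 98.3% of the summed reads of both features in DOX and 97.7% to 99.0% in PBS.

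Antisense features above their coding partner were common in these libraries. Of 413 antisense and coding pairs with overlapping exons and at least 1 mean of 10 or more normalized counts, the antisense member had the higher mean in 255 (61.7%), and the median log2 ratio was 2.17. Gm45774 over Mt2, at a log2 ratio of means of 5.74, ranked 72nd of the 413, and Gm45774 had the highest level of all antisense features in these pairs, without division by length. Neither was tested, since the ratio is what Gm45774 was chosen by.

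The genes whose levels followed the metallothioneins most closely were found by Pearson's r of log2 values over the 9 libraries, among the other 2603 genes tested. For Mt1 these were Mt2 (0.91), Ppil2 (0.90), a cyclophilin-like ubiquitin ligase, Rab23 (0.89), a small GTPase that restrains Hedgehog signaling, Tpr (0.88), of the nuclear pore basket, and Ifitm3 (0.87), an interferon-induced membrane protein. For Mt2 they were Ppil2 (0.92), Gm14232 (0.91), Mt1 (0.91), Tpr (0.87) and Fmo2 (0.87), a flavin monooxygenase of the lung. For Gm45774 they were Tpr (0.92), Tmub2 (0.87), Gas6 (0.85), a ligand of the TAM receptor kinases, Rnf181 (0.85), a ubiquitin ligase, and Ppil2 (0.85), with Mt1 6th and Mt2 7th.

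Ppil2 and Tpr stood in all 3 of these lists. Tpr averaged 89.3 normalized counts in DOX and 33.9 in PBS, and Ppil2 19.3 in DOX and 7.77 in PBS. Neither passed the test (limma, adjusted p = 0.761 for Tpr and 0.807 for Ppil2). Exons of another gene lie opposite to those of Ppil2 (Ypel1), Tpr (Prg4 and Odr4), Gm14232 (Spef1), Gas6 (Tmem255b) and Rnf181 (Tmem150a), so the strand limit given for Gm45774 holds for them too. As for Mt1, the values of the genes without such a partner may not be those of their mRNA either. These r values are the highest of 2603 and are given as a description, without a p.

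Other genes of metal handling were compared as lists, in the order of regulators, zinc, copper and iron. The median log2 difference of all genes tested was -0.01, and none of the listed genes passed the test or had an unadjusted p under 0.05 with limma. Of 10 regulators of metallothionein genes 3 could be tested, and all 3 had lower fitted means in DOX (median -0.40). Mtf1, the zinc-sensing transcription factor, was at 619 ± 142 normalized counts in DOX (SD, n = 5) and 809 ± 119 in PBS (SD, n = 4), a log2 difference of -0.40 (limma, adjusted p = 0.775). Stat3, which acts on metallothionein genes downstream of interleukin-6, was at 19.6 ± 7.07 in DOX and 38.4 ± 18.0 in PBS, a log2 difference of -0.87. Il6st, the signaling receptor chain gp130, had a log2 difference of -0.29.

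Of 10 glucocorticoid-induced genes 2 were tested, their fitted means differing in direction (1 higher, 1 lower, median 0.24). Dusp1, a phosphatase of MAP kinases, was at 39.7 ± 16.1 normalized counts in DOX (SD, n = 5) and 31.9 ± 17.9 in PBS (SD, n = 4), a log2 difference of 0.54. Cebpd, a transcription factor, was at 201 ± 19.7 in DOX and 215 ± 56.6 in PBS, a log2 difference of -0.06. Both groups overlapped in their spread.

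Zinc transporters were mostly at or near 0 in these values. With the strand setting not known and the depth limited, this does not show that their mRNA was absent. Of 10 zinc exporters 6 were at 0 in all libraries and 1 was tested, Slc30a9, at 20.9 ± 17.2 normalized counts in DOX (SD, n = 5) and 10.9 ± 6.29 in PBS (SD, n = 4). Of 14 zinc importers 4 were at 0 and 2 were tested, with a median log2 difference of -0.06. Slc39a1, a plasma membrane importer, was at 1055 ± 216 in DOX and 907 ± 401 in PBS, and Slc39a5 at 27.8 ± 6.74 in DOX and 39.4 ± 12.0 in PBS. The spread of both genes overlapped between DOX and PBS.

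Of 12 genes of copper handling 2 were tested, with fitted means higher in DOX for both (median 0.51). Sod1, the cytosolic copper and zinc superoxide dismutase, was at 196 ± 84.3 normalized counts in DOX (SD, n = 5) and 112 ± 60.7 in PBS (SD, n = 4), a log2 difference of 0.85 (limma, adjusted p = 0.761). Atox1, a copper chaperone, had a log2 difference of 0.18. Of 12 genes of iron storage and transport 4 were tested, all with higher fitted means in DOX (median 0.16). Fth1, the ferritin heavy chain, was at 61.6 ± 17.3 in DOX and 40.0 ± 13.9 in PBS, a log2 difference of 0.62, and Pcbp2, an iron chaperone and RNA-binding protein, at 98.4 in DOX and 85.1 in PBS. Among the genes named from these lists, exons of another gene lie opposite to those of Mtf1, Stat3, Dusp1, Cebpd and Pcbp2. The strand limit given for Mt1 holds for the other listed genes too. These counts of 1 to 4 tested genes a list are too few to set against the 49.4% of all genes with a higher fitted mean.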

How the data were processed

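RNA of sorted mouse lung fibroblasts was profiled by MARS-seq. According to the study's methods and the submitters' processing notes, the authors used STAR (mm10) for mapping and HTSeq-count for counting. The methods name a RefSeq annotation for the counting. Neither versions nor a strand setting were stated there. Per gene, a normalized signal was deposited by the authors in 1 table of 55421 lines per library, of which 119 repeated symbols were summed here. Dividing a library's values by its smallest step gave whole reads for 100% of them (tolerance 1e-06). The inverse steps matched median-of-ratios size factors, as DESeq2 computes them, to within 1.21e-08 percent. Groups were taken from the sample titles.

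Values were tested as log2(value + 1) by limma 3.58.1 with its trend option (R 4.3.3), without covariates. The 2604 genes that reached 10 in 4 libraries or more were tested, and p-values were adjusted after Benjamini and Hochberg (threshold 0.05). Fold changes on this scale understate those of low genes. The recovered reads were also tested with limma-voom, edgeR 4.0.16 and DESeq2 1.42.0. Ratios were compared over all 126 splits into 5 and 4 libraries and correlations over all 362880 pairings, adjusted over 3 pairs. Splits and pairings were enumerated in full with NumPy 2.4.6, and ranks came from SciPy 1.17.1. Of these steps, the limma and edgeR tests and the permutation tests of differences and correlations were tried on simulated data. Alternatives were other pseudocounts, filters, scalings and tools, library weights, the replicate number as a block, and each library left out. Chi-square tests gave 8.51 to 41.4 per degree of freedom between libraries of a group, so none was a repeat.

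The members and the gene lists were chosen with earlier results of these data known. The text names the members, their neighbours, the 5 genes of most similar pattern and up to 3 genes of lowest p in each list. Coordinates, overlaps and antisense pairs are from GENCODE M21, which is not the annotation that the methods name for the counting. Promoters are from RefSeq for all 3 metallothioneins, Gm45774 having no window.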

Additional observations from a re-analysis of the deposited data

Results flagged for a closer look

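Mt1 in PBS replicate 1 was at 382 normalized counts, below the other 3 PBS libraries at 472 to 478. Its distance to the nearest of them was 0.938 of the range of the group, above Dixon's critical value of 0.829 for 4 samples. It was the 1 such value in 12 groups of 4 or 5 libraries examined, where chance gives about 1 in 20 groups. Mt2 was also lowest among the PBS libraries in replicate 1, at 217.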

How the results depend on the processing

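The differences between DOX and PBS of Mt1, Mt2 and Gm45774 kept their sign and stayed unpassed in all 21 alternatives each, with log2 differences of 0.54 to 0.76 for Mt1, 0.50 to 0.98 for Mt2 and 0.28 to 0.77 for Gm45774, and adjusted p of 0.423 to 0.986, 0.443 to 0.986 and 0.610 to 0.986 in that order. The lowest value of Gm45774, 0.28, was found without DOX replicate 1, and it was 0.34 without both PBS replicate 4 and DOX replicate 2. The lowest and highest log2 differences are also those of leaving out each library in turn. Without a filter on low values 3 of 17428 genes passed, CT010467.1, Gm17300 and Gm20721, against 0 with it, and 0 passed with each library left out. Leaving out 1 library moved the log2 ratio difference to between -0.40 and 0.0063 for Gm45774 over Mt2, -0.26 and 0.010 for Gm45774 over Mt1 and -0.078 and 0.22 for Mt2 over Mt1. Mt2 over Mt1 changed sign without DOX replicate 1 (-0.016) and without PBS replicate 1 (-0.078), Gm45774 over Mt2 without PBS replicate 1 (0.0063) and Gm45774 over Mt1 without DOX replicate 5 (0.010). Correlations ranged from 0.72 to 0.95 for Gm45774 with Mt2, 0.73 to 0.93 for Gm45774 with Mt1 and 0.84 to 0.94 for Mt2 with Mt1, and both lowest values with Gm45774 (without DOX replicate 1) no longer passed (exact permutation, adjusted p = 0.0522 and 0.0540). The cause of these changes was not tested.

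Libraries of the same replicate number deviated together only weakly (r of 0.02 to 0.07 over 4 pairs). Pairs of unlike number had r of -0.08 to 0.04. Whether equal numbers stand for a shared batch cannot be told from such small r values. With the replicate number as a block, which leaves out DOX replicate 5, 0 genes passed with limma, the log2 differences were 0.76, 0.98 and 0.77 for Mt1, Mt2 and Gm45774 (limma, adjusted p = 0.787 each), and the log2 ratio difference of Gm45774 over Mt1 was 0.010 (adjusted p = 1). Of the 4 DOX libraries with a PBS partner, 3 correlated best with their own number, a hint from the data only.

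The size of the design limits these results, with 5 and 4 libraries. Mt1 rests on 374 reads or more in every library and Mt2 on 217 or more, its lowest number being in PBS replicate 1, whereas Gm45774 rests on 18995 or more, so that counting error is smallest for Gm45774.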
